A study of Homo sapiens with 6 samples.

Results

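Transcripts of 10 genes that the liver uses to supply blood clotting were followed in a liver cancer cell line in which the miR-17 family of microRNAs was inhibited. The genes encode the fibrinogen chains (FGA, FGB and FGG), prothrombin (F2), coagulation factors V, VII, X and XII (F5, F7, F10 and F12), plasminogen (PLG) and kininogen (KNG1). They were chosen by name, with earlier results of these data known. Every probe set whose array annotation gives 1 of these symbols alone was used. These were 21 probe sets for 10 genes, of 19775 genes with a probe set of their own. A further probe set, annotated to both PLG and LPA, was left out of the tests, and it stood at 2.12, the lowest value on the arrays, in all 6 samples.

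The cells were Hep3B, an established human hepatocellular carcinoma line, grown with fetal bovine serum, and total RNA was hybridised to 6 Affymetrix HG-U133 Plus 2 arrays. Both groups carried a lentiviral decoy RNA of the kind called TuD (tough decoy, an RNA that holds microRNA binding sites open and so sequesters the microRNA): the miR-17 TuD group (3 arrays) a decoy against the miR-17 family and the NC TuD group (3 arrays) a control decoy. In both groups, virus was added with polybrene for 48 hours (multiplicity of infection 5), cells were selected with puromycin, and after 2 weeks resistant colonies were pooled into 1 stable line. Each group therefore rests on the single pooled line made for it. The labels do not call the 3 samples of a group separate cultures, so p-values rest on a spread among samples that may be purely technical. The sample descriptions carry a further code, which holds 72HR on all 6 arrays, PLUSDOX on every miR-17 TuD array and NODOX on every NC TuD array. No source used here explains it, and its effect and that of the decoy cannot be told apart. All values are log2 expression as deposited, and every difference subtracts the NC TuD mean from the miR-17 TuD mean.

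Fibrinogen is made by hepatocytes as a dimer of Aα, Bβ and γ chains, and thrombin turns it into fibrin, the mesh of a clot. Thrombin is formed from prothrombin by factor Xa with its cofactor factor Va, and factor X is activated by factor VIIa bound to tissue factor. Factor XII and kininogen belong to the contact system, and plasmin, formed from plasminogen, dissolves fibrin. The miR-17 family represses mRNAs that carry a match to its seed, and its mature members in RefSeq (GRCh38.p14) are shown because they are the decoy's targets, with the seed, bases 2 to 8, in capitals. All 6 share 1 seed.

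hsa-miR-17-5p: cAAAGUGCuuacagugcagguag
hsa-miR-20a-5p: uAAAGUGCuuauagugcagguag
hsa-miR-20b-5p: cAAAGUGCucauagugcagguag
hsa-miR-93-5p: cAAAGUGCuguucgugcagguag
hsa-miR-106a-5p: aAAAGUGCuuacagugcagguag
hsa-miR-106b-5p: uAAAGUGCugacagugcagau

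Transcripts of the fibrinogen chains, prothrombin, factor VII and kininogen fell in the miR-17 TuD cells. The largest falls were those of FGA on the second of its probe sets (2.87-fold lower) and FGB (2.39-fold and 2.37-fold lower), followed by KNG1 (1.89-fold and 1.71-fold lower), FGA on its probe set with the highest signal (1.66-fold lower) and FGG (1.60-fold lower). F2 and F7 fell by less, at 1.35-fold and 1.34-fold lower. Factor V, factor X and factor XII transcripts did not pass the threshold, and plasminogen stood at the lowest value of the arrays in both groups. Of the 21 probe sets, 9 fell, for 6 of the 10 genes, 0 rose, 6 did not pass and 6 lay at or near the lowest value and were not tested, against 2.48% of all 32768 tested probe sets that fell. In 11 member probe sets every miR-17 TuD array lay below every NC TuD array, against 13.6% of all tested probe sets. Since the genes were chosen with earlier results of these data known, both comparisons with all probe sets are a description. The median difference of the 15 tested member probe sets was -0.43, and that of all tested probe sets was 0.00 to 2 decimals. Except where an exact permutation test is named, adjusted p-values are from limma with Benjamini-Hochberg adjustment over all tested probe sets. The threshold was 0.05. RNA of whole cultures was measured, so fewer cells of a type and less RNA per cell cannot be told apart.

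**Figure D1:**
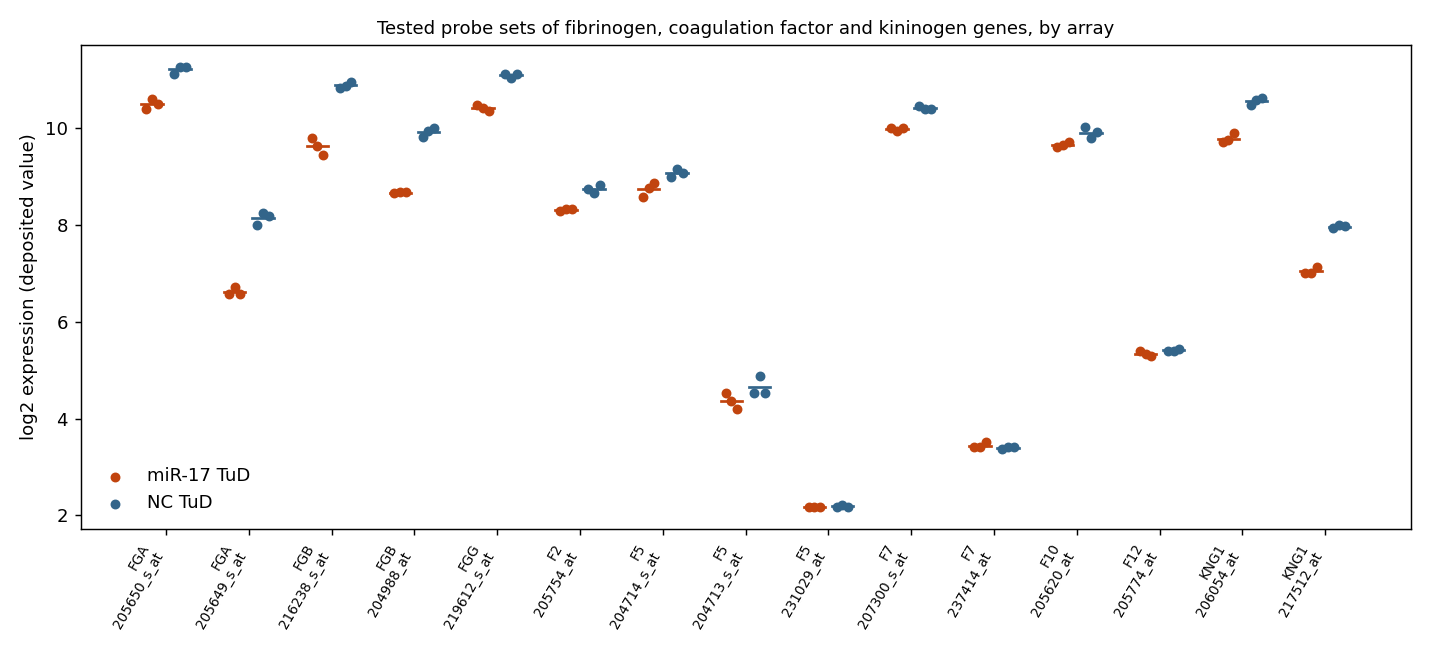
Log2 expression (y axis) of the 15 tested probe sets, with 1 point per array, miR-17 TuD (orange) left of NC TuD (blue), and a line at each group mean. They cover 9 of the 10 genes, since PLG had no tested probe set. For FGA, FGB, FGG and KNG1 the groups are separated by 0.53 or more, while F12 and the weak probe sets of F5 and F7 overlap.

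Within a group, arrays correlated at 0.9994 or more (Pearson's r) over all probe sets, and no array repeated another. Hep3B cells held the hepatocyte markers fixed for the check: 7 of 8 were analysed here, all above the lowest value, and 6 of these 7 fell (all but SERPINA1), among them ALB (15.99 in miR-17 TuD and 16.20 in NC TuD cells) and AFP (7.82 and 9.08). Of all 13949 genes, each at its tested probe set with the highest mean, 7.96% passed the threshold in either direction. The median difference of the 7 hepatocyte markers was -0.49. APOA1 differed by -1.31, AFP by -1.27, APOB by -0.75, TF by -0.49, TTR by -0.47, ALB by -0.21 and SERPINA1 by 0.13. The log2 of the summed level of these 7 markers was 16.98 to 17.04 in the miR-17 TuD arrays and 17.19 to 17.24 in the NC TuD arrays. ALB, the strongest, contributed most to this sum. Of markers of other cell types, 0 of 4 fibroblast (3 tested), 0 of 4 endothelial (2 tested), 0 of 4 megakaryocyte or platelet (2 tested) and 1 of 3 leukocyte markers (1 tested) passed the threshold. That 1 was LYZ, which rose by 0.59 (adjusted p = 0.0305). The log2 of the summed level was 12.57 to 13.15 against 12.54 to 12.60 for the fibroblast list, 4.80 to 5.33 against 4.75 to 4.80 for the endothelial list, 6.93 to 7.06 against 6.91 to 6.93 for the megakaryocyte list and 7.12 to 7.37 against 6.67 to 6.77 for the leukocyte list, in miR-17 TuD and NC TuD arrays. Of these lists, COL3A1, CDH5, KDR, PF4, PPBP and CD3E were at the lowest value on all arrays, and PTPRC was on 5. Other members were measured above it, in miR-17 TuD and NC TuD cells: COL1A1 at 12.79 and 12.45, COL1A2 at 9.35 and 8.91, ITGA2B at 6.78 and 6.70, TEK at 4.10 and 3.75 and LYZ at 7.17 and 6.58. COL1A2 was higher in every miR-17 TuD array than in any NC TuD array, as LYZ was, but did not pass (adjusted p = 0.245). Signal at the 3′ minus the 5′ control probe sets differed between groups by 0.0038 for GAPDH and -0.019 for ACTB on the log2 scale (exact permutation p = 0.8 and 0.1). The part of these markers and controls in the results was not tested.

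FGB, which encodes the Bβ chain, was measured by 2 tested probe sets that gave the same size of fall. On 216238_s_at it stood at 9.78, 9.62 and 9.44 in the miR-17 TuD arrays, against 10.82, 10.86 and 10.94 in the NC TuD arrays. Every miR-17 TuD array was lower than every NC TuD array, by at least 1.04. The difference was -1.26 (SE 0.097, 95% interval -1.51 to -1.0, adjusted p = 0.0129). On 204988_at, which carries no suffix for shared transcripts, the values were 8.65, 8.67 and 8.68 in miR-17 TuD arrays, against 9.81, 9.93 and 9.99 in NC TuD arrays. The miR-17 TuD arrays agreed within a few hundredths, and the difference was -1.24 (SE 0.051, 95% interval -1.38 to -1.11, adjusted p = 0.00613). By size of fall the probe sets ranked 9 and 11 among the 812 that fell. Leaving out any single NC TuD array ended the 216238_s_at call (adjusted p = 0.0567 to 0.0658), and the 204988_at call held in all 6 fits that left out 1 array (adjusted p up to 0.0405).

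FGA, which encodes the Aα chain, differed in size between its probe sets. On 205650_s_at it stood at 10.38, 10.59 and 10.48 in miR-17 TuD cells, against 11.12, 11.26 and 11.25 in NC TuD cells, a difference of -0.73 (SE 0.07, adjusted p = 0.0175). On 205649_s_at it stood at 6.58, 6.72 and 6.56 in miR-17 TuD cells, against 8.0, 8.24 and 8.19 in NC TuD cells. The groups were at least 1.28 apart on this probe set, and the difference of -1.52 (SE 0.082, 95% interval -1.74 to -1.31, adjusted p = 0.00764) ranked 3 by size among the 812 that fell. Array annotation derives the probe sets from different RefSeq transcripts of FGA, a gene known for a short and a long form of its chain that differ at the carboxyl end. Both probe sets carry the suffix for shared transcripts, and which form each measures was not tested. Within each array, 205649_s_at minus 205650_s_at was -3.80, -3.86 and -3.92 in the miR-17 TuD cells and -3.11, -3.02 and -3.07 in the NC TuD cells. The gap was wider in every miR-17 TuD array, a mean change of -0.80 (exact permutation test, 2-sided, p = 0.1, the smallest that 3 against 3 arrays allow, and adjusted p = 0.175 over 7 pairs of probe sets, a comparison chosen after the values were seen). The remaining FGA probe set, 231671_at, was at the lowest value on all 6 arrays. The 205650_s_at call ended without any 1 NC TuD array or miR-17 TuD replicate 3 (adjusted p = 0.052 to 0.0799), and the 205649_s_at call held in all 6 such fits (adjusted p up to 0.0451).

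FGG, the γ chain gene, had 1 probe set, 219612_s_at. It stood at 10.48, 10.41 and 10.34 in miR-17 TuD arrays, against 11.11, 11.04 and 11.10 in NC TuD arrays. The groups were 0.56 or more apart, and the difference was -0.67 (SE 0.043, 95% interval -0.79 to -0.56, adjusted p = 0.0104). The call ended without NC TuD replicate 1 (adjusted p = 0.0574) or replicate 3 (adjusted p = 0.051).

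Whether the chains fell to a different extent was asked with the within-array difference between chains, each at its probe set with the highest mean. FGB minus FGG was -0.70, -0.78 and -0.90 in the miR-17 TuD arrays and -0.29, -0.18 and -0.16 in the NC TuD arrays, a change of -0.58 (exact permutation test, 2-sided, p = 0.1, adjusted p = 0.15 over the 3 pairs of chains). FGB minus FGA was -0.60, -0.96 and -1.04 in the miR-17 TuD arrays and -0.29, -0.41 and -0.31 in the NC TuD arrays, a change of -0.53 (exact p = 0.1, adjusted p = 0.15). Groups did not overlap in either comparison, but with 3 arrays a group neither could pass the threshold. FGA minus FGG changed by -0.053 (exact p = 0.6). The contrast with FGA depended on the probe set: with its tested probe sets averaged, FGB minus FGA changed by -0.13 (exact p = 0.2) and FGA minus FGG by -0.45 (exact p = 0.1).

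**Figure D2:**
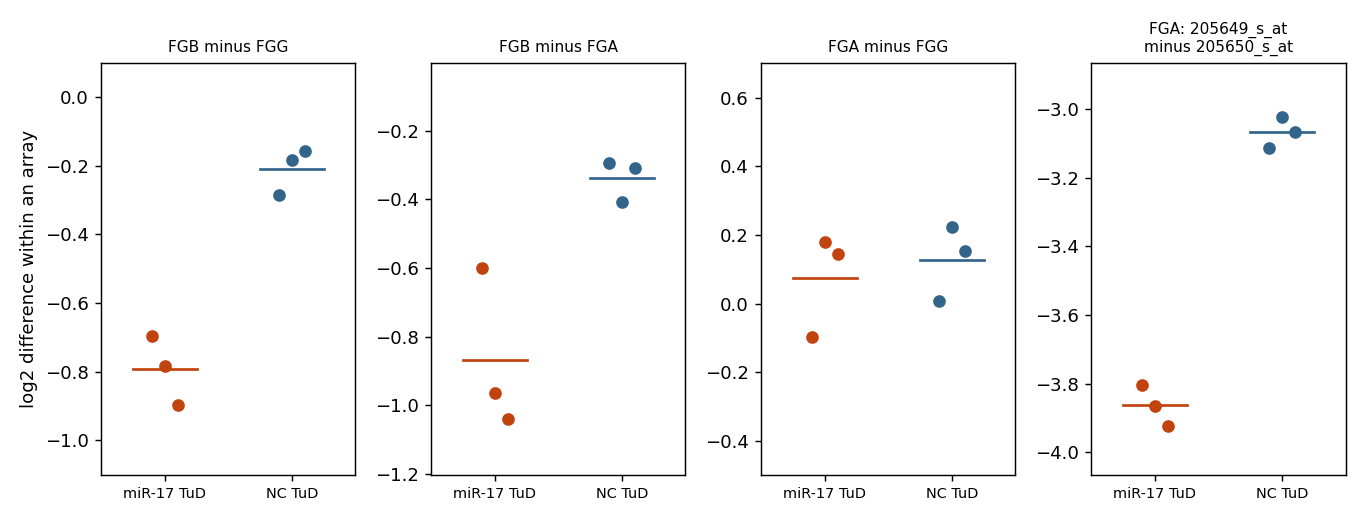
Log2 difference between 2 chains, or between 2 FGA probe sets, within each array (y axis, the same span of 1.2 in every panel), with 1 point per array and a line at each group mean. FGB minus FGG, FGB minus FGA and the pair of FGA probe sets are lower in all 3 miR-17 TuD arrays than in any NC TuD array, and FGA minus FGG overlaps. Absolute positions compare different probe sets and have no meaning of their own.

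The 3 chain genes lie next to each other on human chromosome 4, in the RefSeq order FGB, FGA, FGG. The 3 protein-coding genes on each side were looked up to see whether the fall extended along the chromosome. PLRG1, a spliceosome component next to FGB, stood at 12.55, 12.50 and 12.44 in miR-17 TuD cells, against 12.47, 12.49 and 12.49 in NC TuD cells (difference 0.01, 95% interval -0.07 to 0.09, adjusted p = 0.862). The interval of this gene, which was well expressed, lies far from the differences of the chains. SFRP2 and DCHS2 were weak, at group means of 2.23 in both groups for SFRP2 and of 3.06 and 3.20 in miR-17 TuD and NC TuD cells for DCHS2, and did not pass. LRAT, RBM46 and NPY2R on the FGG side were at the lowest value on all arrays.

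Promoters of the chain genes are shown because the chains fell together, from 250 bases before to 50 bases after the annotated start (RefSeq, GRCh38.p14). They lie at chr4:154562730-154563029 on the plus strand (FGB), chr4:154590693-154590992 on the minus strand (FGA) and chr4:154612607-154612906 on the minus strand (FGG). Capitals mark matches on either strand to short motifs of factors known to act on liver or acute phase genes, which are spelled out after the sequences. Matches to different motifs did not overlap in these promoters.

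FGB: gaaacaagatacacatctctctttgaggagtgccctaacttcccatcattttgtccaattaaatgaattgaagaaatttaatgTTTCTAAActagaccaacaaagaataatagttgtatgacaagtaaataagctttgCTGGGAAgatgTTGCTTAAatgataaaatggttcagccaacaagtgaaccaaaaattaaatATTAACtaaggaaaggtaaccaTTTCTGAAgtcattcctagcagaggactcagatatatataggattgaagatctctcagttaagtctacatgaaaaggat
FGA: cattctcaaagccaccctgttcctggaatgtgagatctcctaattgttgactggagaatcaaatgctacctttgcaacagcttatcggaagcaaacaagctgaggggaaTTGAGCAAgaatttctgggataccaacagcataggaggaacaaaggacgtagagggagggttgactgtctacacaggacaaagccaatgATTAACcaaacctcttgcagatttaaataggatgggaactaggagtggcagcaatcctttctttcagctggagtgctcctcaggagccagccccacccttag
FGG: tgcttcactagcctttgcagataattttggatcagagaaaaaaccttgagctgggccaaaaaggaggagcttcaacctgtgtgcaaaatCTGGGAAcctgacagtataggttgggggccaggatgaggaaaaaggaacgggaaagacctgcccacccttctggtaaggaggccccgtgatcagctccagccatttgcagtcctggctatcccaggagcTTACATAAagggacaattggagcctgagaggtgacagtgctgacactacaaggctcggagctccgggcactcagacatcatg

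A core of the HNF1 site, GTTAAT, had its first base at position -51 from the annotated start in FGB and -52 in FGA. FGG had none in the window. These positions rest on the annotated starts, and whether the cells use those starts was not tested. The HNF1 core was found in 4 of the 10 promoters of the members (FGA, FGB, F2 and PLG) and in 6.88% of 35116 promoters of the same length. The C/EBP motif, TTNNGNAA, was found in 5 (all chains, F12 and KNG1), against 36.8% of all promoters, and the interleukin-6 response motif, CTGGGAA, in 4 (FGB, FGG, F10 and PLG), against 10.8%. The FGA window holds CTGGGAT, which differs from this motif in its last letter alone and was not counted. The HNF4 motif, CAAAGTCCA, was found in 1 (F10), against 0.384%. The exact letters TATAAA, 1 form of the TATA box, were found in 0, against 11.5%. Other forms were not searched. The FGB window holds TATATATA just after the annotated start, which was not counted. Matches were found in promoters of genes that fell and of genes that did not. A match is a description of letters and not of binding.

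Vitamin K-dependent proteases were represented by F2, F7 and F10. F2, which encodes prothrombin, stood at 8.28, 8.32 and 8.32 in miR-17 TuD cells, against 8.74, 8.66 and 8.81 in NC TuD cells. The groups did not overlap, and F2 fell by 0.43 (SE 0.044, 95% interval -0.55 to -0.31, adjusted p = 0.0192). F7, which encodes the protease that starts the extrinsic pathway, stood at 10.00, 9.94 and 10.00 in miR-17 TuD cells, against 10.45, 10.39 and 10.38 in NC TuD cells on 207300_s_at. It fell by 0.43 (SE 0.028, 95% interval -0.50 to -0.35, adjusted p = 0.011) with no overlap. A second F7 probe set, 237414_at, was weak, at 3.40, 3.40 and 3.52 in miR-17 TuD cells, against 3.37, 3.40 and 3.40 in NC TuD cells (adjusted p = 0.511). F10, which encodes the protease of the prothrombinase complex, stood at 9.59, 9.64 and 9.72 in miR-17 TuD cells, against 10.01, 9.79 and 9.91 in NC TuD cells. Its groups did not overlap either, but the difference of -0.25 (95% interval -0.43 to -0.08) did not pass after adjustment (adjusted p = 0.114). The F2 call held without NC TuD replicate 2 and ended when any of the 5 other arrays was left out (adjusted p = 0.0541 to 0.0832), and the F7 call without NC TuD replicate 2 (adjusted p = 0.0552).

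F7 and F10 are neighbours on chromosome 13. MCF2L, a guanine nucleotide exchange factor gene next to F7, went the other way, at 8.36, 8.44 and 8.68 in miR-17 TuD cells, against 8.05 in each of the 3 NC TuD arrays (difference 0.44, adjusted p = 0.0645), short of the threshold. It passed with array weights, median scaling, quantile normalization, the stricter filter, 1 probe set per gene and without miR-17 TuD replicate 3 (adjusted p = 0.0171 to 0.0448). TUBGCP3 (-0.02), ATP11A (-0.14), PCID2 (0.08) and PROZ (-0.11), a vitamin K-dependent cofactor gene near the lowest value, did not pass, and F10-AS2 had no probe set of its own here.

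**Figure D3:**
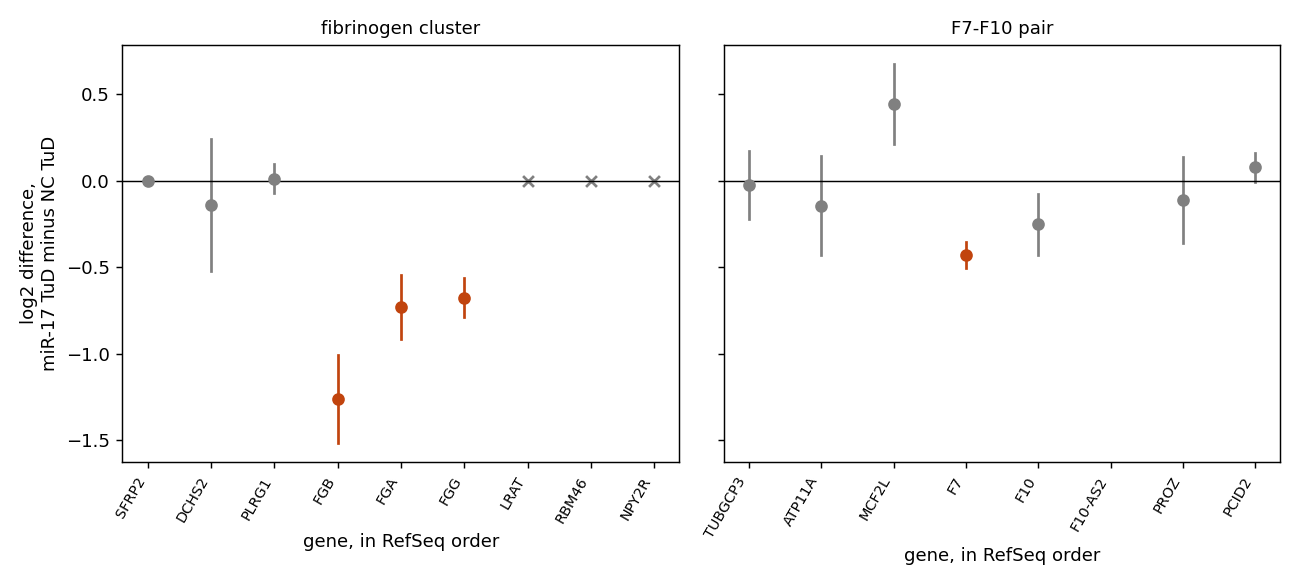
Log2 difference with its 95% interval (y axis) for the fibrinogen genes (left) and F7 and F10 (right) with the 3 nearest protein-coding genes on each side, in RefSeq order along the x axis. Orange points passed the threshold, grey points did not, crosses mark genes at the lowest value on all arrays, and F10-AS2 is blank because it was not measured. The 3 chain genes and F7 are the genes past the threshold.

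F5 encodes factor V, the cofactor of factor Xa. On 204714_s_at it stood at 8.57, 8.76 and 8.86 in miR-17 TuD cells, against 8.99, 9.14 and 9.06 in NC TuD cells. The groups were separated by 0.13, and the difference of -0.33 (95% interval -0.57 to -0.10) did not pass after adjustment (adjusted p = 0.115), though it did with the filter on low values at the 60th percentile (adjusted p = 0.0484). On 204713_s_at the values overlapped, at 4.53, 4.37 and 4.20 in miR-17 TuD cells, against 4.53, 4.88 and 4.54 in NC TuD cells (adjusted p = 0.33). The remaining probe set, 231029_at, lay at 2.18 on 5 of the 6 arrays.

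KNG1, the precursor of bradykinin and a cofactor of contact activation, had 2 well measured probe sets. On 206054_at it stood at 9.71, 9.74 and 9.88 in miR-17 TuD cells, against 10.47, 10.58 and 10.61 in NC TuD cells. On 217512_at it stood at 7.0, 7.01 and 7.12 in miR-17 TuD cells, against 7.93, 7.99 and 7.96 in NC TuD cells. Both separated the groups, with differences of -0.78 (SE 0.064, adjusted p = 0.0142) and -0.92 (SE 0.039, adjusted p = 0.00613). The remaining one, 243562_at, was at the lowest value on 5 arrays. The 206054_at call ended without any 1 NC TuD array or miR-17 TuD replicate 2 (adjusted p = 0.0501 to 0.0677), and the 217512_at call held in all 6 such fits.

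F12, which encodes the protease that kininogen helps to activate, stood at 5.39, 5.33 and 5.30 in miR-17 TuD cells, against 5.39, 5.39 and 5.44 in NC TuD cells. The groups met at 5.39, and the difference of -0.06 (95% interval -0.14 to 0.01, adjusted p = 0.294) did not pass. These values are from 205774_at, and the other F12 probe set, 215961_at, was at the lowest value on all 6 arrays. The interval of F12 on 205774_at does not reach the size of the KNG1 falls. The F12 signal was low and stood at 5.39 on arrays of both groups. The interval therefore cannot show that F12 transcripts changed less. PLG was at 2.12 on all 3 of its own probe sets in every array, so a change of plasminogen transcripts could not be seen on this scale.

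**Figure D4:**
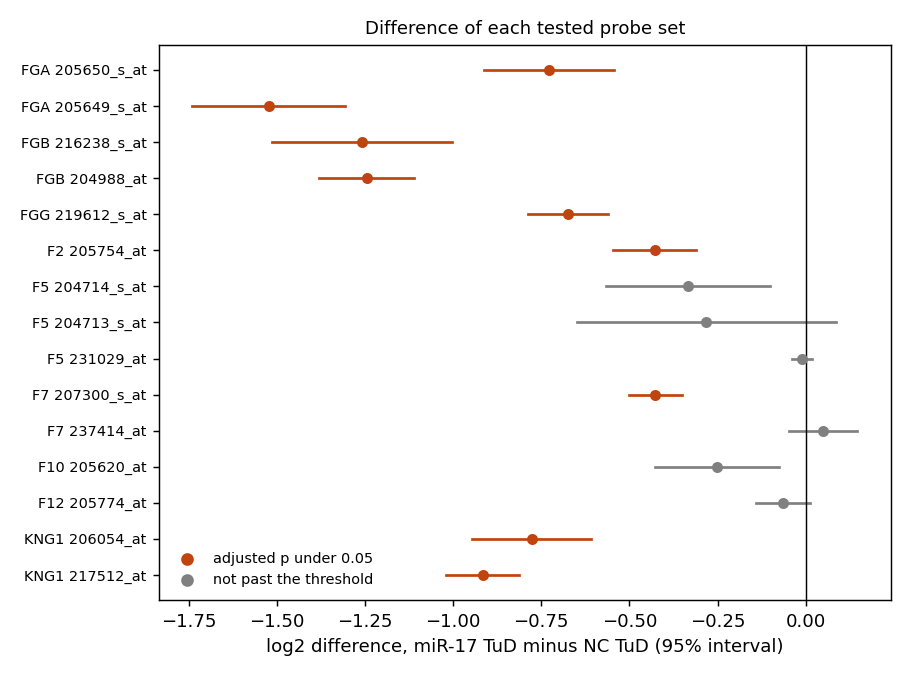
Log2 difference, miR-17 TuD minus NC TuD (x axis), with its 95% interval for each of the 15 tested probe sets. The 9 orange probe sets passed the threshold, from -0.43 for F7 and F2 to -1.52 for FGA, and the 6 grey ones did not.

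Other coagulation and fibrinolysis genes showed few calls. Of 36 listed, 33 were analysed here and 25 were tested, each at its probe set with the highest mean: 1 rose, 1 fell and 23 did not pass, close to the 7.96% of 13949 genes that passed in either direction. Their median difference was -0.06, which takes in genes near the lowest value, such as F8 (mean 2.26), PROZ (2.20) and PROCR (2.14). In several genes that did not pass, every miR-17 TuD array lay below every NC TuD array. These were F11, TFPI, PROS1, SERPIND1, SERPINF2, SERPINA5, SERPINA10, CPB2 and GGCX. They make up a larger share of the 25 tested than the 13.6% of all tested probe sets. The list was chosen with earlier results of these data known, so this comparison is a description. SERPINA5 came nearest to the threshold (-0.29, adjusted p = 0.0503). A2M (0.40) and VKORC1 (0.12) lay higher in every miR-17 TuD array and did not pass. F3, which encodes tissue factor, the membrane receptor of factor VII, rose 1.75-fold. It stood at 9.57, 9.75 and 9.58 in miR-17 TuD cells, against 8.73, 8.91 and 8.85 in NC TuD cells (difference 0.80, SE 0.073, adjusted p = 0.0155). F3 and F7, receptor and ligand, thus moved in opposite directions in the same arrays. MCFD2, part of the cargo receptor that carries factors V and VIII out of the endoplasmic reticulum, fell by 0.11 (adjusted p = 0.04). The F3 call ended without any 1 NC TuD array (adjusted p = 0.0641 to 0.067), and the MCFD2 call when any array was left out, with array weights, with median scaling and with either other filter (adjusted p = 0.0542 to 0.186).

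The genes fixed for naming in this list stood as follows. SERPINF2, which encodes the plasmin inhibitor, differed by -0.54 with a wide spread among the miR-17 TuD arrays, at 7.48, 7.47 and 7.04, against 7.89, 7.77 and 7.93 in NC TuD arrays (adjusted p = 0.112), and passed with the stricter filter (adjusted p = 0.0436). F11, the factor XI gene, differed by -0.29 (adjusted p = 0.0575), and passed with array weights, median scaling, the stricter filter, 1 probe set per gene and without miR-17 TuD replicate 2 (adjusted p = 0.0246 to 0.0498). The anticoagulant genes PROS1 (-0.14, adjusted p = 0.28) and PROC (-0.02, adjusted p = 0.564) did not pass. F9, SERPINC1 and PLAT were at the lowest value on all arrays, and PLAU at 2.13 was left out by the filter.

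Genes that are known to control liver or acute phase transcription gave 2 that fell and 1 that rose of 19 tested (of 23 listed), beside the 7.96% of all genes that passed in either direction, with a median of -0.12. ONECUT1, a liver transcription factor gene, fell by 0.46 (8.53 ± 0.079 in miR-17 TuD and 8.99 ± 0.028 in NC TuD cells, SD, n = 3 each, adjusted p = 0.0176), and NR5A2, a nuclear receptor gene, fell by 0.28 (adjusted p = 0.0343). JAK1, a kinase of interleukin-6 signalling, rose by 0.22 (adjusted p = 0.03). CEBPA (-0.22, adjusted p = 0.0607), CEBPB (0.03, adjusted p = 0.845) and STAT3 (0.13, adjusted p = 0.201), whose products are known to act on liver and acute phase genes, did not pass. The ONECUT1 call ended without any 1 NC TuD array (adjusted p = 0.0726 to 0.0825), the NR5A2 and JAK1 calls when any array was left out and with no filter (adjusted p = 0.0597 to 0.108), and CEBPA passed with array weights, both other scalings, the stricter filter and 1 probe set per gene (adjusted p = 0.0319 to 0.0466).

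**Figure D5:**
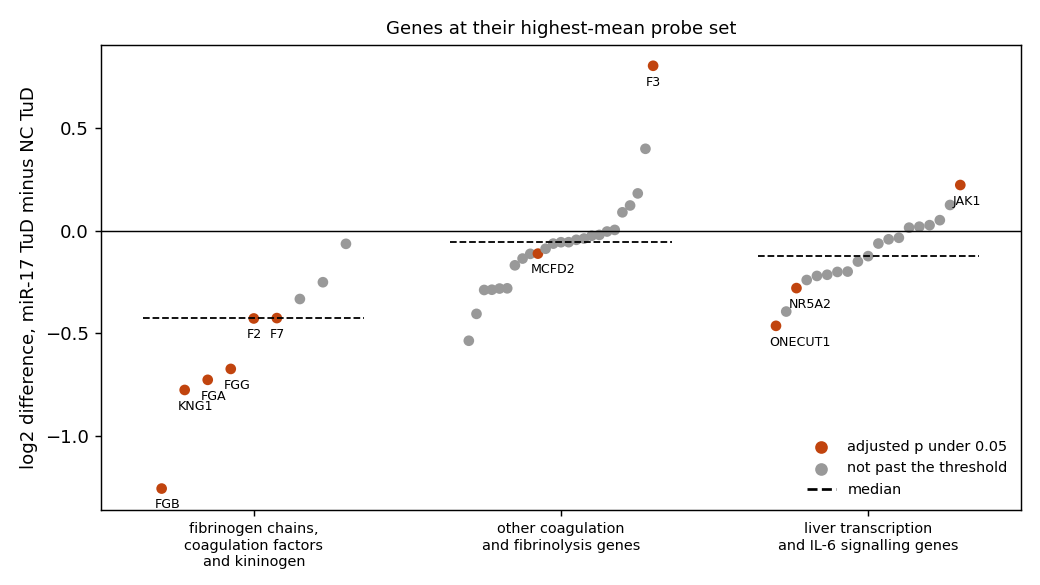
Log2 difference (y axis) of tested genes at their highest-mean probe set, in 3 groups along the x axis, ordered by size within each, with the median as a dashed line. Orange points passed the threshold and are named. The fibrinogen, kininogen, F2 and F7 genes sit between -0.43 and -1.26, and F3 stands highest at 0.80.

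The 5 genes whose pattern over the 6 arrays was nearest to the mean of the 3 chains, by root mean square difference of centred log2 values among 13940 genes, were PPP1R1A (0.087), PEG3 (0.096), APOB (0.099), UGT3A1 (0.10) and LOX (0.10). APOB, the apolipoprotein of low-density lipoprotein, stood at 12.52, 12.55 and 12.32 in miR-17 TuD cells, against 13.15, 13.33 and 13.16 in NC TuD cells. UGT3A1, a glycosyltransferase gene, stood at 9.56, 9.60 and 9.65 in miR-17 TuD cells, against 10.54, 10.69 and 10.65 in NC TuD cells. The 5 genes differed by -0.75 to -1.02 between the groups, and since they were picked for this likeness their differences are a description.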

How the data were processed

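Each array has a single log2 value per probe set, made by the authors and used as deposited. RMA and GCRMA stand in the submitters' processing notes, without versions or the part each played. Values lay between 2.12, a lowest value that all arrays share, and 16.3, and 36.7% to 37.1% of probe sets on each array lay within 0.001 of it, so changes of weakly expressed genes are hidden. Array medians were 2.75 to 2.78. With 3 arrays a group, their number limits the precision.

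Of 54613 probe sets that are not controls, those with a mean over the 6 arrays above the 40th percentile (2.14) were tested (32768). Names come from GEO's platform annotation where it gives exactly 1 symbol (41091 probe sets), updated through Entrez identifiers to RefSeq GRCh38.p14 (41037 matched), whose coordinates are printed only for sequences. The comparison used lmFit and eBayes of limma 3.58.1 (R 4.3.3, 2-sided), with Benjamini-Hochberg adjustment, and the prior degrees of freedom were 0.63. Differences between probe sets within an array were compared by exact permutation over the 20 assignments of arrays. The code was tested on simulated data.

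Named genes were all 10 members, up to 10 coagulation genes and 6 regulators past the threshold by size, with fixed panels from both lists, neighbours of both loci and the 5 nearest patterns. The members and lists were chosen with earlier results of these data known. Alternatives covered normalization, filter, variance model, weights, probe set choice, the replicate number as a block and leaving out each array.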

Additional observations from a re-analysis of the deposited data

How the results depend on the processing

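All 9 member probe sets that fell kept their direction in each of the 54 refits that left out 1 array and kept their call in 35 of these, while 3 (FGA on 205649_s_at, FGB on 204988_at and KNG1 on 217512_at) kept it in all 6. They kept their call in all 64 refits with other scalings, filters, variance models, weights or probe set choices that included them. The count of member probe sets that fell was 4 to 8 when 1 array was left out (4, 5 and 4 without NC TuD replicates 1, 2 and 3), and 4 of 8 tested without s_at and x_at probe sets. Over all probe sets, 1910 were called, against 145 to 1155 when 1 array was left out, 3271 with the filter at the 60th percentile, 554 with no filter, 2930 with median scaling and 836 without s_at and x_at probe sets.

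Same-numbered arrays of the groups correlated in their deviations at r = 0.04, 0.10 and 0.11, each highest with its own number, but the labels give no shared source, so the numbers were not taken as pairs. With the replicate block, limma called 0 of 32768 probe sets (7488 at an unadjusted p under 0.05) and 0 members (11 unadjusted), with adjusted p from 0.0541 to 0.0743 for the 9 called members. It also called 0 genes of the coagulation list (11 unadjusted) and 0 of the regulator list (8 unadjusted).

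The coagulation list count of 2 became 4 with array weights, median scaling, quantile normalization or 1 probe set per gene, 7 with the 60th percentile filter, 1 with no filter and 0 to 3 without 1 array (at an unadjusted p under 0.05, 9, 9 and 8 where the count was 0). The regulator count of 3 became 6 with the 60th percentile filter or 1 probe set per gene, 5 with median scaling or quantile normalization, 1 with no filter and 0 to 1 without 1 array (8, 9 and 8 unadjusted where it was 0). Both are 0 without any 1 NC TuD array.

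None of the differences that changed sign was called: median scaling gave 0.012 for F5 on 231029_at and 0.0016 for PROC, quantile normalization -0.0033 for PLRG1, and array weights 0.0065 for TUBGCP3. Without 1 array, CEBPB ranged from -0.023 to 0.089, DCHS2 (-0.14 with all arrays) from -0.23 to 0.015, PLRG1 from -0.013 to 0.042, TUBGCP3 from -0.077 to 0.029, and FGA minus FGG from -0.11 to 0.033. The causes were not tested. Low signal limits PLG, F12 on both of its probe sets and the weakest probe sets of FGA, F5 and KNG1.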
